A study of Mus musculus with 4 samples.

Results

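*Meg3*, *Rian* and *Mirg* are 3 long noncoding RNA genes that lie in a row on mouse chromosome 12, on the plus strand, in the imprinted *Dlk1*-*Dio3* domain. They were chosen by the rows that carry their names in the 3 deposited peak tables of a MeRIP-seq study of spinal cord after nerve injury, and were taken up with earlier results of these data known. The rows by name were 21 of the 33556 peaks of the CCI list, 19 of the 34406 peaks of the sham list and 10 of the 4812 rows of the differential table, over 3 of the 13558 gene names found in any table. Every value given for these rows is therefore a description, with no test.

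In MeRIP-seq, RNA fragments pulled down by an antibody against N6-methyladenosine (m6A), the most common methyl mark inside messenger RNA, form the IP library. Fragments of the same RNA that did not go through the antibody step form the input library. Both groups were C57BL/6J mice, 6 to 8 weeks old, and poly(A) RNA was prepared from spinal cord on day 7. In the CCI group (chronic constriction injury) the sciatic nerve had been loosely ligated, and in the sham group it had been exposed without a ligature. There was a single IP and a single input library for each group (1 and 1), so no value has a replicate error and no difference between CCI and sham could be tested. The number of mice behind a library is not given in the sources used here.

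In an imprinted domain the 2 parental copies are read differently. In this domain the protein-coding genes *Dlk1*, *Rtl1* and *Dio3* are known to be expressed mainly from the paternal copy, and *Meg3*, *Rian* and *Mirg* from the maternal copy. *Meg3* is an abundant RNA of the nervous system, *Rian* is the host of many small nucleolar RNAs (snoRNAs), and *Mirg* is the host of many microRNAs (miRNAs). The writers of m6A act on adenosines within a short consensus whose usual form is GGACU, and the mark is known to gather near stop codons, in long internal exons and in last exons.

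The unit of every level below is the authors' fold enrichment, the ratio of the IP signal to the input signal over a peak. It is relative to the input, so it is not a level of the RNA. Read counts are not in the tables, which leaves the depth unknown, and no interval was placed on a fold enrichment. The median over all peaks was 5.73 in the CCI list and 5.70 in the sham list. All 19 genes of the list of spinal cord markers had a peak in both lists, and those with most rows were *Rbfox3* and *Slc32a1* of neurons, *Cx3cr1* of microglia and *Slc1a2* of astrocytes. In whole tissue, a change in which cells make an RNA and a change in its methylation per molecule cannot be told apart.

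*Meg3* carried far more peaks than its neighbours *Rian* and *Mirg*. The gene (ENSMUSG00000021268; deposited transcript span chr12:109541005-109571721, build GRCm38) had 14 rows in the CCI list and 15 in the sham list, against a median of 2 rows per gene in each list. By number of rows it ranked 31 of 12408 genes in the CCI list and 27 of 12907 in the sham list. These ranks were not adjusted for exonic length or RNA level. They count rows of any fold enrichment, down to 1.42 in CCI and 1.19 in sham for *Meg3*. *Rian* (ENSMUSG00000097451; chr12:109646141-109661716) had 3 rows in the CCI list and 1 in the sham list. *Mirg* (ENSMUSG00000097391; chr12:109729764-109749458) had 4 rows in the CCI list and 3 in the sham list. When rows that share exonic bases were merged, the 3 genes held 23 loci, of which 15 were called in both lists by name, 6 in the CCI list and 2 in the sham list. At 1 of the 6 the sham list held a peak too, filed under *Mir770*.

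**Figure D1:**
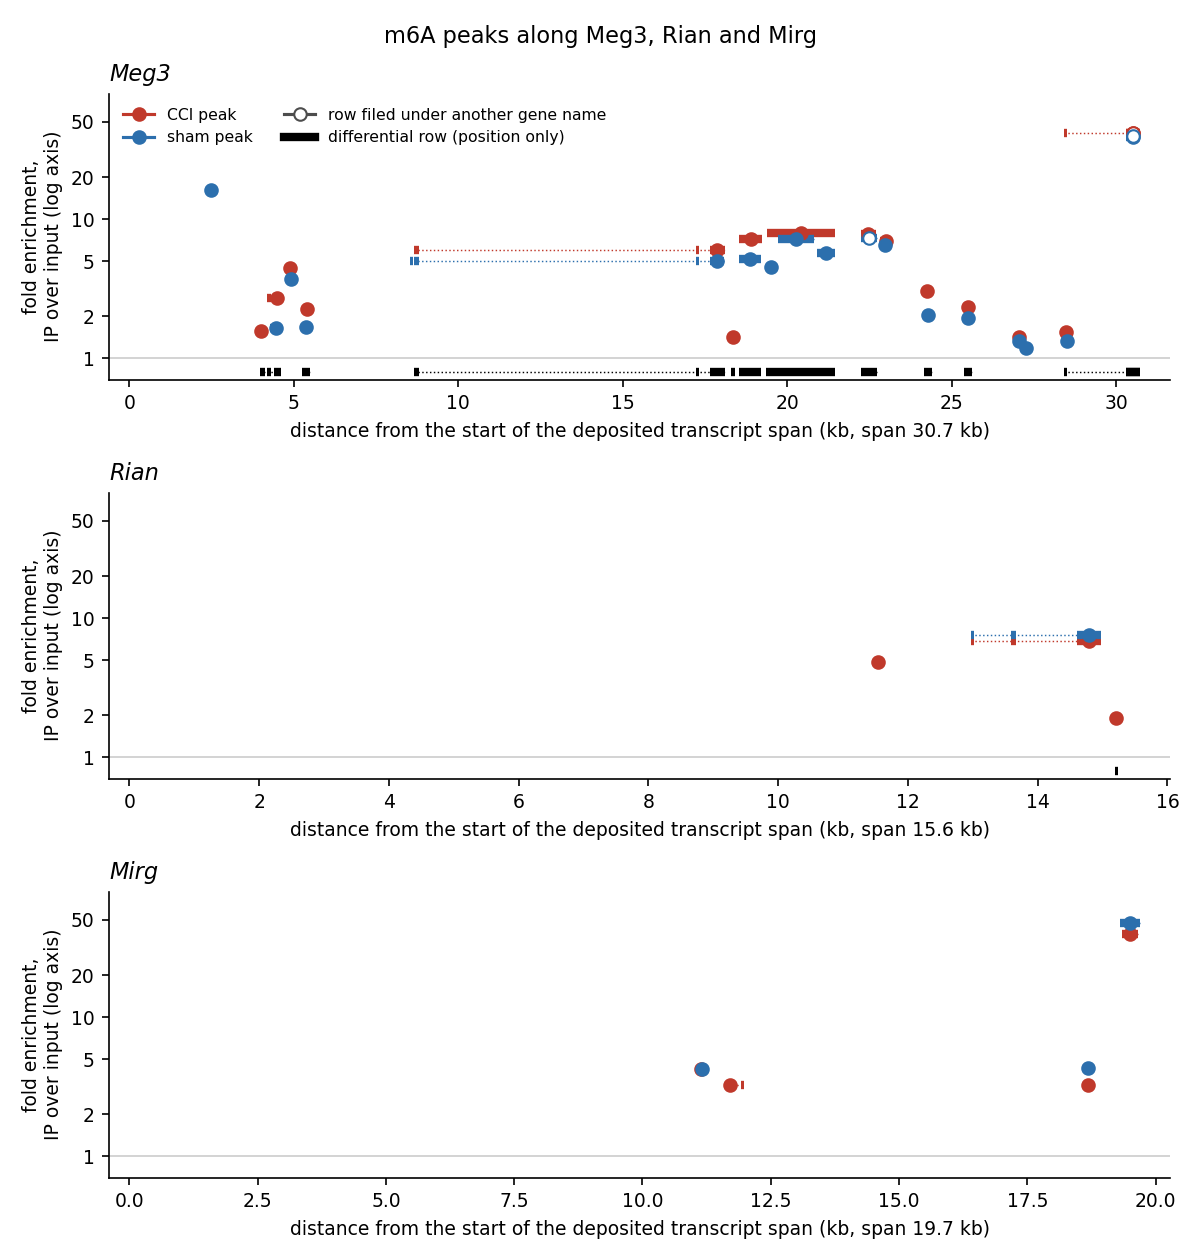
Fold enrichment of IP over input (log axis) of each peak of *Meg3*, *Rian* and *Mirg* against the distance from the start of the transcript in kb, with thick bars for the exonic blocks of a peak, dotted lines for the introns between them, red for CCI, blue for sham, open circles for rows filed under another gene name and black bars for differential rows, whose height carries no value. The *Meg3* peaks form a run of 6.03 to 7.89 in CCI between 8.66 and 23.2 kb, broken by a weak row of 1.43. The CCI peaks named *Meg3* on both sides of the run are lower. The highest points of *Meg3* and *Mirg* lie at the 3′ end, that of *Meg3* in rows filed under another gene name.

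The 5′ part of *Meg3* held 5 loci within 5.49 kb of the transcript start. The first, in exon 1 of 7 at chr12:109543424-109543544, was called in the sham list alone, with a fold enrichment of 16.3. That was the highest value among the rows named *Meg3*, and its listed log10 p against the input was -3.76, where the longest CCI peak of the gene was listed at -3950. The second, at chr12:109544921-109545101, was called in the CCI list alone, with a fold enrichment of 1.58. The other 3 loci were called in both lists. At chr12:109545191-109545569 the fold enrichment was 2.72 in CCI and 1.66 in sham. At chr12:109545779-109546019 it was 4.42 and 3.73, and at chr12:109546289-109546499 it was 2.26 and 1.69. The borders given for a locus in both lists are those of the CCI peak, and CCI was the higher value at all 3.

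The locus with the widest relative difference of the *Meg3* pairs, 2.72 in CCI against 1.66 in sham, covers the end of one *Meg3* transcript and the start of another, so its sequence is shown. Its CCI row is made of 2 exonic blocks, of 129 and 172 bases. The first block stops at 109545319, where a deposited *Meg3* transcript ends, and the second begins at 109545398, which is also the second start site of *Meg3* in RefSeq. The 78 bases between the blocks belong to no exon of the row and open with a run of 20 A. The RefSeq promoter window of that start site (GRCm38.p6, plus strand, chr12:109545148-109545447) is given with the 179 bases under the CCI peak in capitals, of which the sham peak covered 89.
*Meg3* inner start site: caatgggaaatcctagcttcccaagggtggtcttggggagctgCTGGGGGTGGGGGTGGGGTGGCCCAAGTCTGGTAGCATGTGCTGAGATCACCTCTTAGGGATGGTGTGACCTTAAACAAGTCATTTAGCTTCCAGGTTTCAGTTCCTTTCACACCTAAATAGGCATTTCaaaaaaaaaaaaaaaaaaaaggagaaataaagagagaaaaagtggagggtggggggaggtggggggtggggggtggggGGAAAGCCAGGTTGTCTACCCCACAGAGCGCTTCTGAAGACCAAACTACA
The motif GGACT was searched on both strands of this window and was found on neither, while 45.5% of the 32851 promoter windows in the RefSeq table held it on at least 1 strand and 26.1% on the strand of the transcript. That says only that these letters are not in this window, since other forms of the m6A consensus were not searched. The window leaves out part of the CCI peak and takes in bases under no peak. The shares are over promoter windows of DNA, so nothing is read from them about the peak.

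The middle of *Meg3* carried the longest stretch of enriched RNA. Between 8.66 and 23.2 kb from the start, 5 CCI rows had fold enrichments from 6.03 to 7.89 over 4235 exonic bases, out of 5984 exonic bases under all CCI rows named *Meg3*. In the sham list 7 rows over the same stretch, 1 of them filed under *Mir770*, had fold enrichments from 4.50 to 7.35 over 4147 exonic bases. The 8 CCI rows named *Meg3* outside the stretch and its single weak row of 1.43 at 18.3 kb had fold enrichments from 1.42 to 4.42 and were 61 to 301 bases long.

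The first peak of the stretch joins exons that lie far apart in the genome. In CCI its 3 blocks held 149, 84 and 458 bases, the fold enrichment was 6.03 and the peak spanned chr12:109549662-109559097. In sham 1 more block, of 21 bases, preceded them and the fold enrichment was 5.02. The next peak, at chr12:109559547-109560237 in exon 7 of 7 of one transcript, had 7.15 in CCI and 5.14 in sham.

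A single CCI peak of 2071 bases, chr12:109560387-109562457, followed in the same exon, with a fold enrichment of 7.89, the highest of the CCI rows named *Meg3*. Its place in the sham list was taken by 3 rows of 301, 1111 and 541 bases, with fold enrichments of 4.50, 7.24 and 5.72. Together the 3 sham rows held 1953 bases. A weak locus of 91 bases at chr12:109559307-109559397 was called in the CCI list alone, with a fold enrichment of 1.43.

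The following peak touches the miRNA gene *Mir770*, which lies within *Meg3*, and this decided the name under which it was filed. In CCI the row ran over chr12:109563237-109563687 and was named *Meg3*, with a fold enrichment of 7.79. In sham it ran 30 bases further, to 109563717, was named *Mir770* and had a fold enrichment of 7.35. The annotation text of both rows places them in exon 5 of 5 of the same *Meg3* transcript. The *Mir770* hairpin (RefSeq, GRCm38.p6, plus strand, chr12:109563692-109563785, the same positions as in the tables) is printed with the 26 bases under the sham peak in capitals. The CCI peak stopped short of it.
*Mir770* hairpin: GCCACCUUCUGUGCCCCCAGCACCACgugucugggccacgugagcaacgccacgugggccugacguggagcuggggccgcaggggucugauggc
The sham peak also covered the first 8 bases of the mature miR-770-5p, printed with its seed (bases 2 to 8) in capitals. The libraries were made from long poly(A) RNA, so none of these values measures the miRNA itself.
miR-770-5p: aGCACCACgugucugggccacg
The last peak of the stretch, at chr12:109563837-109564167, had a fold enrichment of 7.01 in CCI and 6.53 in sham.

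Beyond 24 kb the peaks in the same long exon were weak. The fold enrichment was 3.04 in CCI and 2.05 in sham at chr12:109565127-109565397, and 2.34 and 1.95 at chr12:109566357-109566627. It was 1.42 and 1.33 at chr12:109568006-109568066, where both lists gave the same 61 bases, and 1.54 and 1.33 at chr12:109569416-109569536. A locus of 91 bases at chr12:109568216-109568306 was called in the sham list alone, with a fold enrichment of 1.19, lower than that of any other row of the 3 genes in the sham list.

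The strongest enrichment over *Meg3* was filed under another gene. At chr12:109571306-109571726, annotated as exon 10 of 10 of a *Meg3* transcript, both lists held a peak of 421 bases with a fold enrichment of 41.8 in CCI and 39.4 in sham, at the 95.3rd and 95.1st percentile of their lists. The row is named *Gm26906*, a gene on the minus strand (chr12:109568628-109571723) that overlaps the end of *Meg3*. A second row in each list covers these bases within the exons of *Gm26906* (in CCI with a further block of 24 bases), with fold enrichments of 41.8 and 38.8 and the same listed log10 p as the first, -1580 in CCI and -1940 in sham. The tables give a strand for genes and not for peaks, so reads of *Meg3* and of *Gm26906* cannot be told apart here. With the rows annotated in *Meg3* exons added, whatever their name, 6423 exonic bases of *Meg3* lay under a peak in CCI and 5899 in sham.

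*Rian* was enriched near its 3′ end in both groups, at a middling level. Its main peak, chr12:109659106-109661116, had the same 3 exonic blocks in both lists, with 481 bases in all. The fold enrichment was 6.84 in CCI and 7.51 in sham, at the 56.6th and 60.1st percentile of all peaks. It ended 600 bases before the end of the transcript, further from it than the strongest peaks over *Meg3* and *Mirg* did. The other 2 loci were called in the CCI list alone. One, of 91 bases at chr12:109657637-109657727, had a fold enrichment of 4.86 and a listed log10 p of only -2.75. The other, of 91 bases in the last exon at chr12:109661296-109661386, had a fold enrichment of 1.92 and a log10 p of -26.3.

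No peak of *Rian* met one of its small RNA genes. In RefSeq the gene is longer than in the tables, with 57772 bases against 15576, and 11 snoRNA and 3 miRNA genes lie within it. The nearest snoRNA gene ended 441 bases before a peak and the nearest miRNA gene 39301 bases away. The whole stretch of *Rian* that hosts miRNAs lay outside the deposited transcript, and so did some of its snoRNA genes. The deposited peaks are made of exonic blocks, and whether the other snoRNA genes lie in exons was not checked. Nothing is therefore read from this absence.

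*Mirg* had a strong peak at its very 3′ end and weak ones inside. The last exon, exon 17 of 17, carried a peak at chr12:109749101-109749430 in CCI with a fold enrichment of 39.6, and at chr12:109749072-109749460 in sham with a fold enrichment of 47.6, at the 94.9th and 96.2nd percentile of their lists. The CCI peak stopped 28 bases before the end of the transcript. A peak of 121 bases, chr12:109748384-109748504, had the same borders in both lists, with 3.26 in CCI and 4.28 in sham. Another locus had 4.26 in CCI over 91 bases at chr12:109740855-109740945, and 4.21 in sham over 181 bases around them. The last, chr12:109741453-109741699 with blocks of 51 and 10 bases, was called in the CCI list alone, with a fold enrichment of 3.24 and a log10 p of -3.72.

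Like those of *Rian*, the peaks of *Mirg* lay beside its small RNA genes and not over them. Of 14 miRNA genes within *Mirg*, 0 shared a base with a peak. The deposited peaks are made of exonic blocks, and whether these miRNA genes lie in exons was not checked. Nothing is therefore read from this absence about where m6A sits. Within *Mirg* the nearest miRNA gene was *Mir377*, 248 bases from the sham peak in the middle of the gene. The next was *Mir3072*, 424 bases from the peak of 121 bases. Over all 3 genes, 19 miRNA genes with 35 mature arms in RefSeq lay within the deposited or RefSeq spans. *Mirg* starts later in RefSeq, at 109734981, and some of its 14 miRNA genes lie before that start. The 35 arms had 34 different seeds. The only seed found in more than 1 arm was that of miR-453 and miR-496a-5p. Both are printed after the arms of *Mir377*, with the seed in capitals, as the *Mirg* products nearest to a peak and as the pair with a common seed.
miR-377-5p: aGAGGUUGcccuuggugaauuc
miR-377-3p: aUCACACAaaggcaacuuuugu
miR-453: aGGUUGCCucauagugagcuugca
miR-496a-5p: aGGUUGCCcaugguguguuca
The seed of miR-453 and miR-496a-5p is GGUUGCC, and the bases after it differ.

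The question the study put to these tables is how m6A differs between the injured and the control spinal cord, and the values of the 3 genes went in different directions, all by less than 2-fold. A CCI peak and a sham peak were paired where each was the other's best partner by shared bases. In all 12 *Meg3* pairs the fold enrichment was higher in CCI, while 51.8% of the 27380 pairs of all genes were. The log2 ratio of CCI over sham in these pairs ran from 0.08 to 0.71, with a median of 0.25. Over all genes the median was 0.03 and the quartiles were -0.37 and 0.43, so most *Meg3* values lay in the upper part of the usual range and not outside it. The pairs share 1 transcript and the same libraries, so they are not 12 separate observations.

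**Figure D2:**
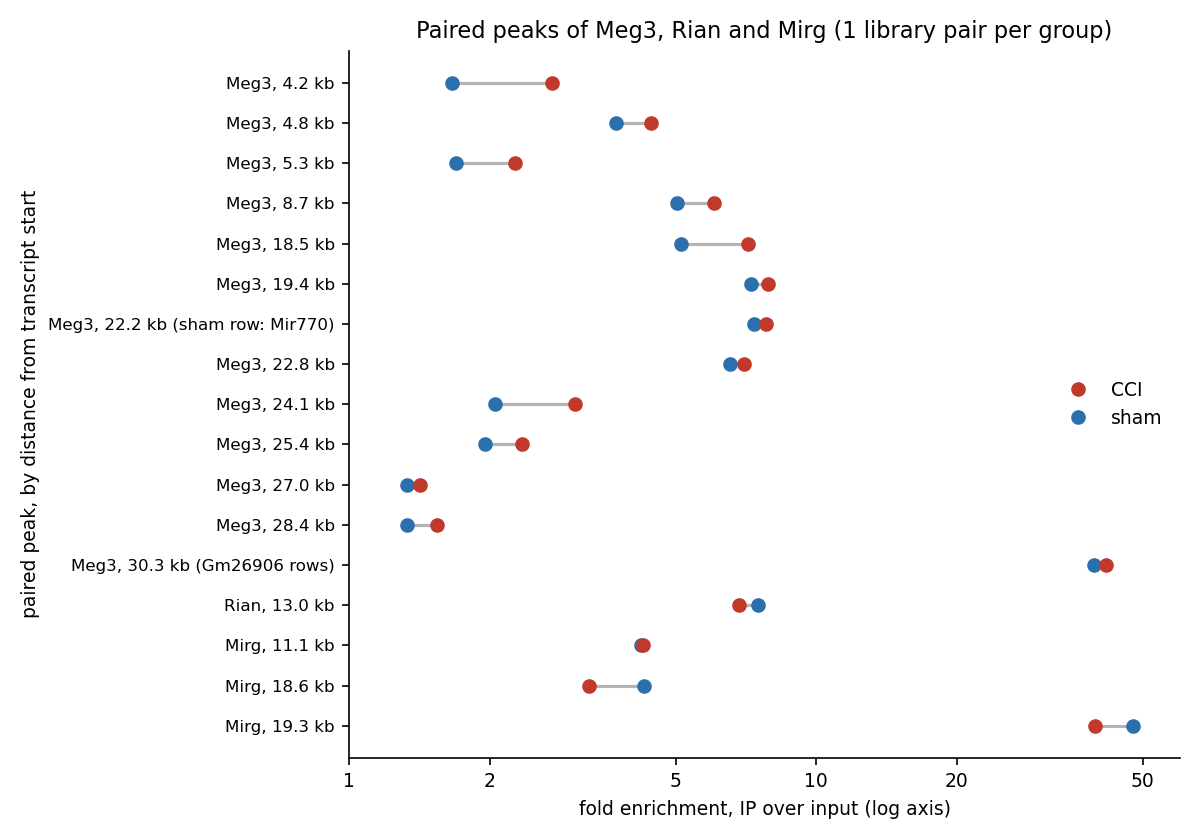
Fold enrichment of IP over input (log axis) of the 17 paired peaks, red for CCI and blue for sham, each line 1 pair, ordered along each gene by the distance of the CCI peak from the transcript start. The red point lies to the right of the blue one in all 12 pairs named *Meg3* and in the pair filed under *Gm26906*, and to its left in the *Rian* pair and in 2 of the 3 *Mirg* pairs.

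*Rian* and *Mirg* did not share the direction of *Meg3*. The single *Rian* pair had a log2 ratio of -0.13. The *Mirg* pairs had log2 ratios of 0.02, -0.39 and -0.27, with the last at its strong 3′ peak, and the first became -0.0096 when centred on the median of all pairs, while all 12 *Meg3* pairs stayed above 0. The *Meg3* values nearest to 0 were at the *Mir770* peak, with 0.08, and at the short peak at 27.0 kb, with 0.09. The pair in the last exon of *Meg3* that was filed under *Gm26906* had 0.09 as well. None of the 16 pairs of the 3 genes was 2-fold higher or lower, while 8.59% of all pairs were at least 2-fold higher in CCI and 7.25% at least 2-fold lower.

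**Figure D3:**
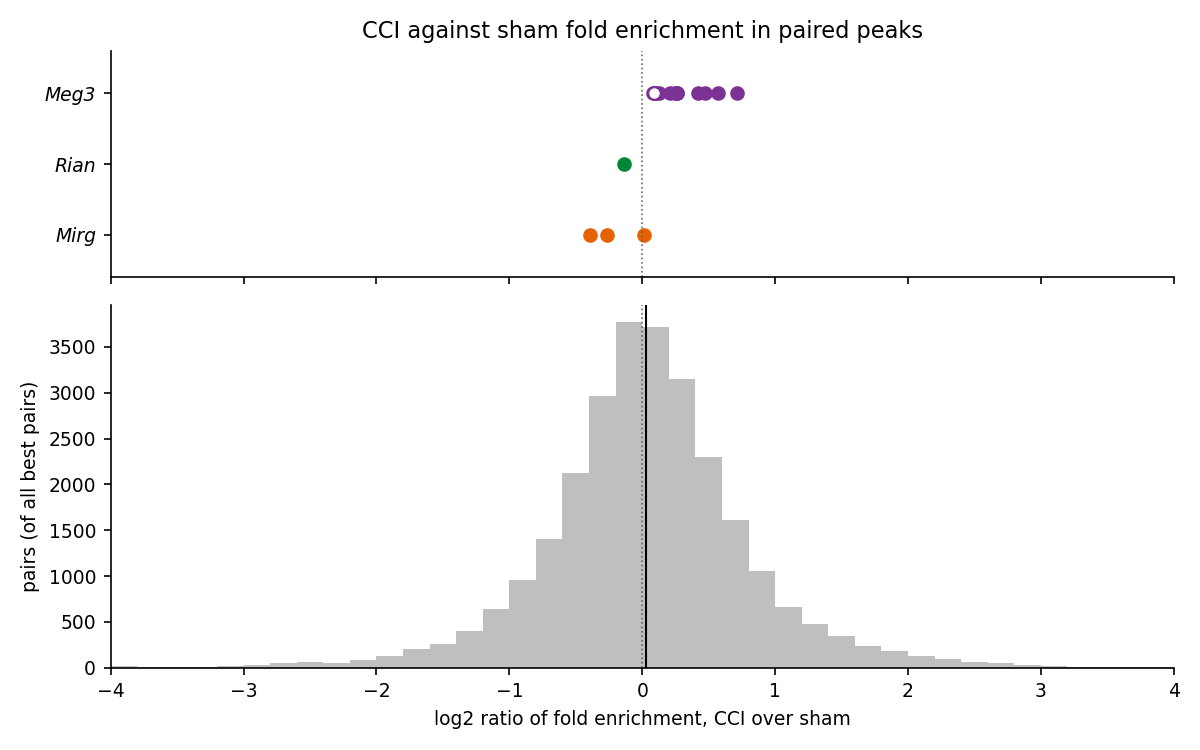
Log2 ratio of fold enrichment, CCI over sham, for the pairs of *Meg3*, *Rian* and *Mirg* (upper panel, open circle for the pair filed under *Gm26906*) and as a histogram over all 27380 pairs (lower panel, bins of 0.2, values past the axis in the outermost bins, black line at the median of 0.03). The *Meg3* points lie between 0.08 and 0.71, the *Rian* point at -0.13 and the *Mirg* points between -0.39 and 0.02, all within the body of the histogram.

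The peaks of *Meg3* were also mostly longer in CCI. In 8 of its 12 pairs the CCI peak held more exonic bases than the sham peak, in 2 the same number and in 2 fewer, whereas the CCI peak was the longer one in 31.5% of all pairs. The median difference was 30 bases. *Mirg* went the other way, with a shorter CCI peak in 2 of 3 pairs and the same length in the other. The median fold enrichment over all rows named *Meg3*, with or without a partner, was 2.88 in CCI and 3.73 in sham. These medians count rows and do not compare the same loci. The single CCI row of 7.89 stands against 3 sham rows of 4.50, 7.24 and 5.72. The sham row filed under *Mir770* is left out.

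Peaks without a partner in the other list ranged widely in fold enrichment. Of the 21 CCI rows, 5 (23.8%) shared no exonic base with a sham peak, where 12.3% of all CCI peaks did not. Of the 19 sham rows, 2 (10.5%) had no CCI peak, where 16.1% of all sham peaks had none. In *Rian* 2 of 3 CCI rows were without a sham peak, in *Meg3* 2 of 14 and in *Mirg* 1 of 4. These 5 CCI rows had fold enrichments from 1.43 to 4.86, and the 2 sham rows without a CCI peak, both of *Meg3*, had 16.3 and 1.19.

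The differential table held 9 rows named *Meg3*, 1 named *Rian* and 0 named *Mirg*. Differential rows of any name met 12 of the 21 CCI rows (57.1%) and 9 of the 19 sham rows (47.4%), beside 15.6% of all CCI peaks and 14.3% of all sham peaks that a differential row met. Since the rows by name are part of what chose the genes, nothing is read from these shares. *Meg3* ranked 4 of the 3436 genes in the table by its number of rows, after *Gm10544*, *Pcdha11* and *Pcdhgc4*, in a table with a median of 1 row per gene. The rank counts the same rows, without regard to exonic length or RNA level, so nothing is read from it either. The 9 rows named *Meg3* lay between 3.98 and 25.6 kb from the transcript start. In the central stretch, the peak at chr12:109563837-109564167 met no differential row, and neither did the sham peak of 16.3 in exon 1. The *Mir770* row and both *Gm26906* rows over *Meg3* exons stood in the table too. The *Rian* row covered 61 bases of its weak last locus, and its main peak had none.

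**Figure D4:**
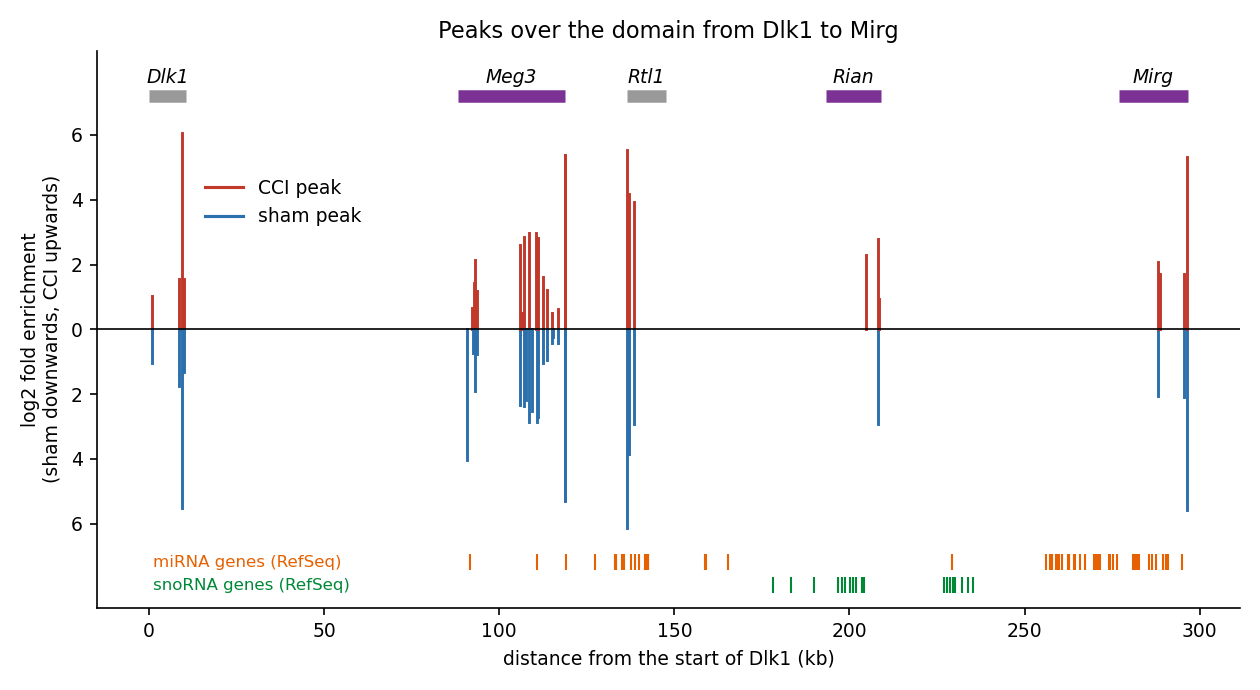
Log2 fold enrichment of IP over input of each peak (CCI upwards in red, sham downwards in blue) against the distance from the start of *Dlk1* in kb, placed at the middle of its longest block, with the deposited gene spans above (*Meg3*, *Rian* and *Mirg* in purple) and the miRNA and snoRNA genes of RefSeq below. The highest bars stand at the ends of *Dlk1*, *Meg3*, *Rtl1* and *Mirg*, and the stretches rich in miRNA and snoRNA genes between *Rian* and *Mirg* carry none. The deposited peaks are made of exonic blocks, so nothing is read from those empty stretches.

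Among the 9 genes of the domain list, 7 had peaks in both lists, and *Dio3* and *Dio3os* had none in either. The protein-coding neighbours that had peaks had fewer rows than *Meg3*. *Dlk1*, which encodes a transmembrane protein related to Notch ligands, had 4 rows in each list, the highest in its 3′-UTR with 67.4 in CCI and 45.8 in sham. *Rtl1*, a gene derived from a retrotransposon and read from the opposite strand, had 3 rows in each list. Its 3′-UTR peak had 46.4 in CCI and 69.7 in sham, and its other peaks 18.2 against 14.3 and 15.1 against 7.58. *Begain*, which encodes a protein of the postsynaptic density, had 5 rows in each list, and *Wdr25* had 3 in CCI and 2 in sham, with 53.2 against 12.8 in its 3′-UTR.

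The log2 ratios of *Rtl1* and *Begain* were spread more widely than those of the 3 noncoding genes, which ran from -0.39 to 0.71. They ran from -0.59 to 0.99 in *Rtl1* and from -1.99 to 2.19 in *Begain*. The ratios of *Dlk1*, from -0.19 to 0.56, lay within the range of the noncoding genes. The 2 pairs of *Wdr25* had 1.12 and 2.06, both above it. The extreme values of *Begain* came from adjoining peaks in exons outside its annotated UTRs. One had 4.67 in CCI against 18.6 in sham, and the next 13.7 against 3.01. The first of these sham peaks ran to 109035323, past the start of the next CCI peak at 109035173. The borders thus cross, and these 2 pairs do not compare the same bases. The other *Begain* ratios ran from -0.60 to 0.07. By the highest row of each gene, the order in CCI was *Dlk1*, *Wdr25*, *Rtl1*, *Mirg*, *Begain*, *Meg3* and *Rian* by name, and in sham *Rtl1*, *Mirg*, *Dlk1*, *Begain*, *Meg3*, *Wdr25* and *Rian*. With 1 library pair per group there is no spread against which neighbours in this order could be told apart.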

How the data were processed

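MeRIP-seq was performed on spinal cord RNA of 1 CCI and 1 sham group, with 1 IP and 1 input library each. The paper names Cutadapt, bowtie, MACS2 and ChIPseeker for read trimming, mapping, peak calling and annotation, whereas the submitters' processing notes name fastp, HISAT2, HOMER, ChIPseeker and the build GRCm38. The column names are those of exomePeak. The deposited fold enrichment is the authors' ratio of IP over input, 1 value per group. The deposited log10 p and false discovery rate were handled as a score, since some are minus infinity. The differential table also holds the authors' own fold change and p-values of CCI against sham, and only the positions of its rows were used.

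Peaks were compared by exonic blocks, ignoring strand, with an overlap of at least 1 bp. Rows of 1 gene that shared exonic bases were merged into loci, and mutual best partners by shared over joint bases formed pairs. The members and lists were chosen with earlier results of these data known. Named were the members with all loci, the domain list in full, at most 4 genes of each other list (those with most rows) and the 3 genes most like each member. *Gm26906*, *Mir770*, *Mir377*, *Mir3072* and the genes with most differential rows were named after their values were seen. The steps were tested on simulated data. RefSeq GRCm38.p6 gave small RNA genes, start sites and sequences. All 3 members matched by symbol, and all 19 miRNA genes in their spans had a sequence. The m6A motif was not searched in the peaks, since a genome was not used here. The alternatives covered the false discovery rate, fold enrichment, overlap, naming of rows, centring and region class. The analysis was run in Python 3.11.15, with pandas 2.3.3 for the tables, numpy 2.4.6, matplotlib 3.10.9 for the plots and scipy 1.17.1.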

Additional observations from a re-analysis of the deposited data

How the results depend on the processing

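Of the 34 alternatives computed, 31 left the value within the tolerance, set at a factor of 1.5 for counts, 0.1 for log2 ratios, 5 points for percentiles and the 95% Wilson interval for shares, and none reversed the sign of a median log2 ratio. A fold enrichment of at least 2 left 16 CCI and 13 sham rows of the members and 10 loci in both lists in place of 15. The median percentile of the members' rows was 27.8 in the CCI list and 38.7 in the sham list. It was 33.4 and 45.2 among peaks outside annotated UTRs, and 38.7 in the CCI list when rows annotated in an exon of a member were taken whatever their name, a choice made after seeing the data. With that choice 16 loci were in both lists and the median log2 ratio was 0.12 in place of 0.17. Centred on all pairs, the median was 0.23 for *Meg3*, -0.16 for *Rian* and -0.29 for *Mirg*. No paired analysis was possible because neither group was sequenced with replicate libraries. The motif search in peaks and its alternative were not run. The 2 lists rest on separate input libraries and on peak borders that differ, and with no read counts the precision of a weak peak is unknown.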

Other observations

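Imprinted noncoding RNAs outside the domain were counted by the rows that carry their names, so a peak filed under another gene would be missed. Whether these genes are expressed in this tissue was not checked. The lists hold only genes with a peak, so no share over all genes can be set beside the counts. Of 6 such genes, 2 had a row in the CCI list and 3 in the sham list. *Airn*, the antisense RNA of the *Igf2r* cluster, had 1 CCI row of 5.99 and 3 sham rows with a median of 12.2, and its only pair had a log2 ratio of CCI over sham of 0.52. *Snhg14* had 1 row in each list, with 1.68 in CCI and 2.01 in sham, and *H19* had 1 row of 17.4 in sham alone. Of 29 imprinted protein-coding genes, 23 had peaks in both lists, with 101 rows in each. Their 79 pairs had a median log2 ratio of -0.01, and 38 were higher in CCI. The 4 genes with most rows over both lists were *Usp29*, with 13 in CCI and 10 in sham, *Rasgrf1*, with 11 in each, *Gnas*, with 10 in each, and *Peg10*, with 9 and 8.

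Among 14 other long noncoding RNAs, 7 had a peak, with 31 rows in each list. *Neat1*, the scaffold RNA of paraspeckles, and *Miat* each had 10 rows in both lists, fewer than *Meg3*, with a highest fold enrichment of 76.1 in CCI and 49.1 in sham for *Neat1* and of 10 and 12.8 for *Miat*. *Snhg11* and *Sox2ot* had 4 rows in CCI and 3 in sham. The 23 pairs of this list had a median log2 ratio of 0.19, and 13 were higher in CCI.

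The genes most like each member were found by the distance over 3 measures, the median log2 ratio of the pairs and the median log2 fold enrichment of each list. Among 58 genes with a similar number of pairs, *Syne1*, *Son* and *Akap2* were nearest to *Meg3*, at distances of 0.25, 0.27 and 0.30 on the log2 scale. Their median log2 ratios were 0.02, 0.11 and 0.30. That of *Meg3* was 0.26 here, over the 11 pairs in which both rows carry its name. *Npm1*, *9530068E07Rik* and *Fam26e* were nearest to *Rian* among 7616 genes, and *Trp53bp1*, *Gm14403* and *Smyd2* to *Mirg* among 5727. With 1 to 4 pairs per gene in these last sets, and 1 library pair per group, the likeness is a description of these tables.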
